A study of Mus musculus with 6 samples.

Results

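The mitochondrial ribosomal proteins were followed in M2-like macrophages taken from 3 sites in mice. The genes were all those on the bead array whose platform symbol begins with Mrpl or Mrps and a digit, without pseudogenes, which gave 76 of the 19057 named genes in the signal table, 48 of the large subunit (Mrpl) and 28 of the small subunit (Mrps). All 76 symbols matched a protein-coding gene of the reference gene table. RNA came from cells positive for CD206, F4/80 and CD11b, per the series title, from C57BL/6 mice aged 10 weeks. There were 2 arrays of macrophages from hearts with myocardial infarction (MI heart), 2 from intact hearts and 2 from the peritoneal cavity. No sham-operated heart is among the labels, and no transgene, agent or other allele is named in them. No source used here gives the time after infarction, the sort gates or how many mice stand behind an array, so p-values measure the spread between these arrays, which may be technical.

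Mitochondria carry their own ribosome, which translates the few messages of mitochondrial DNA into core subunits of the respiratory chain. Its RNA is encoded in mitochondrial DNA, but all of its proteins are made from nuclear genes in the cytosol and imported. The large subunit forms peptide bonds and releases the new protein through the exit tunnel, and the small subunit binds the messenger RNA and reads its codons. Many of these proteins have a counterpart in bacterial ribosomes, while others arose with mitochondria and are specific to them. Macrophages differ by tissue and state in how far they rely on oxidative metabolism, and alternatively activated (M2-like) cells are known for a high use of it.

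Signals are given as log2 of the background-corrected and quantile-normalized bead intensity, and a difference of 1 on this scale is a doubling. A probe counted as above background on an array where its detection p-value was under 0.05. Of the 76 genes, 68 and 70 were above background in MI heart macrophages (replicates 1 and 2), 56 and 63 in intact heart macrophages and 68 and 73 in peritoneal macrophages. A gene was tested if it had a probe above background on both arrays of some group, and 70 members passed (43 large, 27 small). Of these 70, 53 passed in all 3 groups, 11 in MI heart and peritoneal cells, 4 in peritoneal cells (Mrpl39, Mrpl43, Mrps25 and Mrps27), 1 in both heart groups (Mrpl20) and 1 in intact heart cells (Mrps6). The 6 members that failed the filter were Mrpl32, Mrpl35, Mrpl45, Mrpl51, Mrpl53 and Mrps14. Because a gene could enter through its brighter group, the main counts below are also given for the 53 members above background on all 6 arrays. In RNA pooled from many cells, a lower level in every cell and fewer cells with the transcript cannot be told apart.

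Across the whole array, 14023 and 14473 of 45281 probes were above background in MI heart cells, 12433 and 13397 in intact heart cells, the fewest, and 14091 and 14606 in peritoneal cells. All 7 macrophage markers on the array, among them Csf1r, Mertk and Lyz2, were above background on every array. Mrc1, which encodes the CD206 of the sort, averaged 8.85 in MI heart cells, 9.53 in intact heart cells and 5.09 in peritoneal cells. The summed linear signal of the 11 tested cardiomyocyte markers was 292 and 296 in MI heart cells, 409 and 437 in intact heart cells and 245 and 244 in peritoneal cells. It was thus highest where most mitochondrial ribosomal protein genes were lowest, with 8 and 9, then 11 and 10, then 3 and 4 of 16 such markers above background in the 3 groups in that order. Of the 11, 0 rose and 2 fell in MI heart against intact heart cells, and 6 rose and 1 fell in intact heart over peritoneal cells. Myl2, a ventricular myosin light chain, had log2 signals of 5.29 and 4.99 in MI heart cells, 6.24 and 6.76 in intact heart cells and 4.14 and 4.14 in peritoneal cells, while Tnni3 (cardiac troponin I), Ckm (muscle creatine kinase) and Cox8b were not above background on any array. The summed signal of the 2 tested neutrophil markers was 190 and 86.6 in MI heart cells, 46.6 and 51.0 in intact heart cells and 90.9 and 93.5 in peritoneal cells. The 2 markers went opposite ways in MI heart against peritoneal cells, 1 called higher and 1 lower. Csf3r had 5.28 and 5.46 in MI heart cells, 4.64 and 4.89 in intact heart cells and 6.14 and 6.22 in peritoneal cells. S100a9, a calcium-binding protein of neutrophils, had 7.24 and 5.42 in MI heart cells and 4.43 and 4.41 in intact heart cells, where it was not above background, so it was at least 3.56-fold higher in MI heart cells (adjusted p = 0.0358). In peritoneal cells S100a9 had 4.35 and 4.25. The summed signal of the 4 tested fibroblast markers was 116 and 110 in MI heart cells, 85.7 and 84.7 in intact heart cells and 77.5 and 81.5 in peritoneal cells, and Col1a1, a collagen chain, was at least 1.73-fold higher in MI heart than in intact heart cells (adjusted p = 0.00506). The other 3 were not called there, and Pdgfra had 4.54 and 4.31 in MI heart and 4.41 and 4.49 in intact heart cells. Col1a2 and Postn were not above background on any array. Col1a1, like S100a9, passed the detection filter through the MI heart arrays alone, which favoured its call. The part of RNA from heart muscle, neutrophils or fibroblasts, or of the lower detection on the intact heart arrays, in the differences below was not tested.

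Most mitochondrial ribosomal protein genes were highest in peritoneal macrophages, intermediate in MI heart macrophages and lowest in intact heart macrophages. This order of the 3 group means held for 51 of the 70 tested members, or 72.9%, and for 24.1% of all 10533 tests. It held for 30 of 43 large-subunit genes and 21 of 27 small-subunit genes. The filter let in 15 members that were not above background on both intact heart arrays but were so in peritoneal cells, which bears on this count. Among the 53 members above background on all 6 arrays the order held for 39, or 73.6%, and for 24.9% of the 6537 tests that met the same condition. A further 9 members were highest in MI heart and lowest in intact heart cells, 7 were highest in peritoneal and lowest in MI heart cells, and 3 had other orders. Of the 3 exceptions, Mrps6 and Mrpl20 were highest in intact heart cells and Mrpl22 was highest in MI heart cells and lowest in peritoneal cells. An F test over the 3 group means, from the limma fit of all tests with Benjamini-Hochberg adjustment, called 20 of the 70 members (11 large, 9 small), a share of 28.6% beside 27.6% of all tests. Among the 53 it called 15, or 28.3% beside 30.1%. The share of members that varied was therefore near that of the array as a whole, and what the members shared was the order of the groups. All members were read on the same 6 arrays and are not independent of each other, so counts of members do not stand for replicates.

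**Figure D1:**
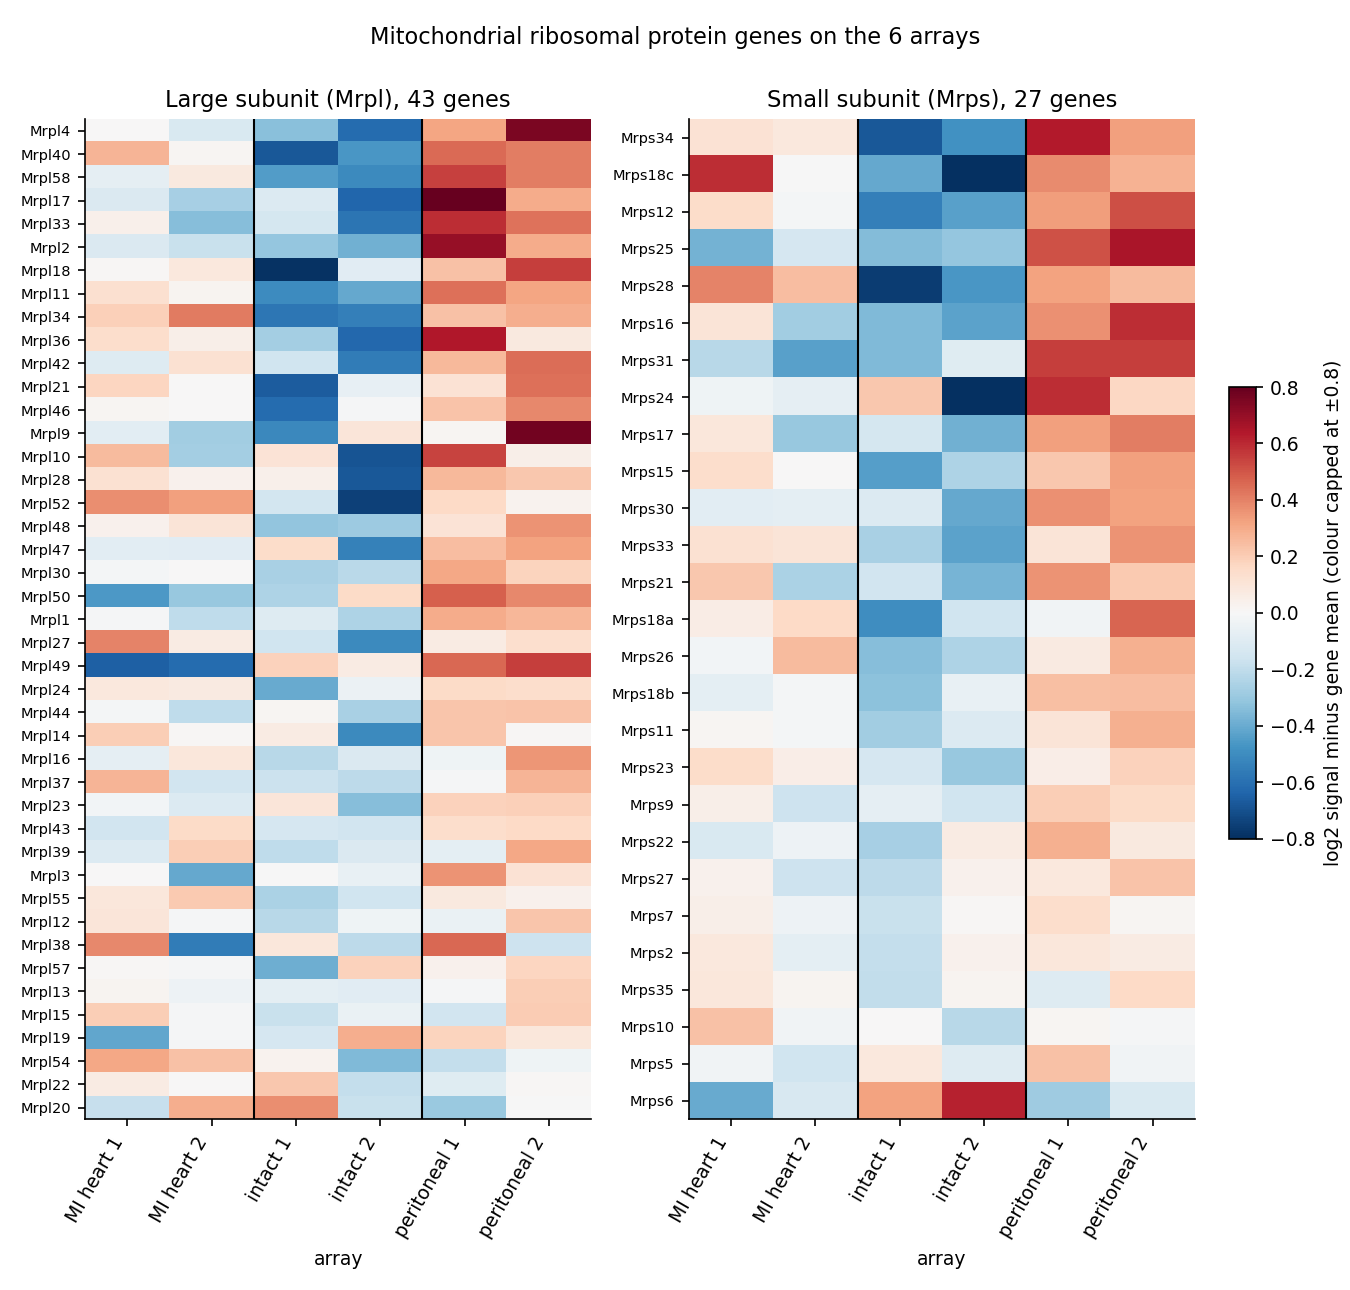
Heat map of the 70 tested genes (rows, large subunit by symbol left, small subunit by symbol right) on the 6 arrays (columns). Colour is the log2 signal minus the gene's mean over the 6 arrays, capped at 0.8 either way. The 2 intact heart columns are mostly blue (below the gene's mean) and the 2 peritoneal columns mostly red (above it), with Mrps6 at the bottom right running the other way.

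The medians of the large and the small subunit had the same order of groups. On each array the log2 signals of every gene were set against that gene's mean over the 6 arrays, and the median of these deviations was taken per subunit. For the large subunit it was 0.01 and 0.00 in MI heart cells, -0.17 and -0.22 in intact heart cells and 0.22 and 0.23 in peritoneal cells. For the small subunit it was 0.06 and -0.04, -0.26 and -0.24, and 0.23 and 0.25 in the same order of groups. The intact heart arrays lay lowest and the peritoneal arrays highest for both subunits, without overlap between groups. Over all 10533 tests the same medians stayed between -0.03 and 0.02. The median difference of the large subunit was 0.21 for MI heart over intact heart, and that of the small subunit 0.19. For intact heart over peritoneal cavity these medians were -0.45 and -0.54, and for MI heart over peritoneal cavity -0.25 and -0.20. The gaps between subunits, large minus small, were thus 0.02, 0.09 and -0.05, while the same gap on single arrays varied between replicates with a pooled SD of 0.04. The gap of 0.09 was not stable, since it became -0.01 when Mrps30 and Mrps18a were moved to the large subunit, -0.04 without intact heart replicate 1, 0.14 without intact heart replicate 2, 0.02 without peritoneal replicate 1 and -0.01 without peritoneal replicate 2. Without intact heart replicate 1 the gap of 0.02 became -0.05.

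**Figure D2:**
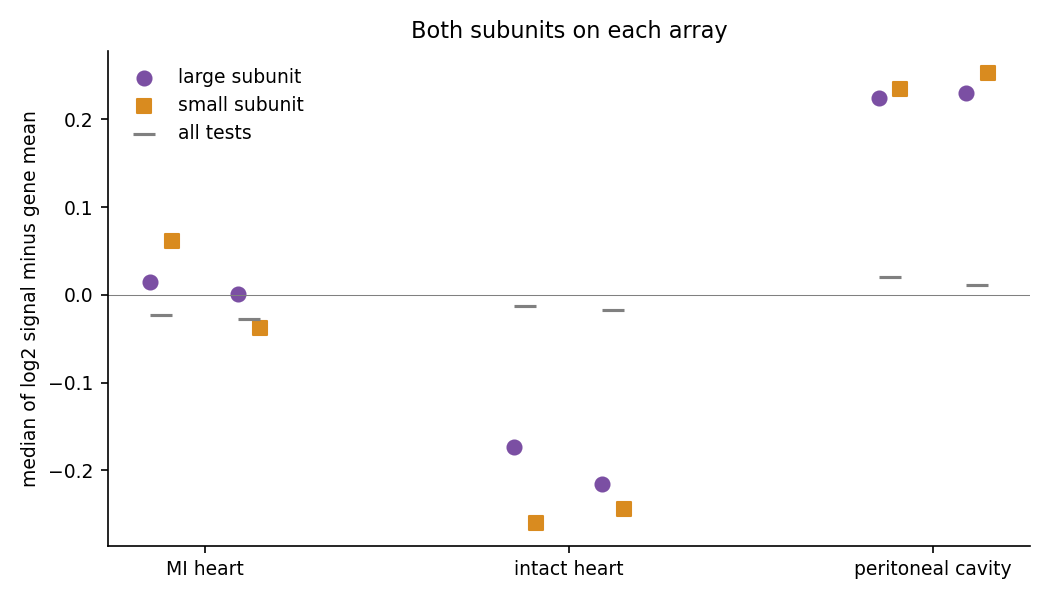
Median over genes of the log2 signal minus the gene's own mean (vertical axis) on each of the 6 arrays, by group (horizontal axis). Circles are the 43 large-subunit genes, squares the 27 small-subunit genes and grey bars all 10533 tests. Both subunits lie below 0 on the intact heart arrays and above 0 on the peritoneal arrays, with similar values for the 2 subunits on each array.

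Macrophages of the infarcted heart were compared with those of the intact heart, the comparison that bears on what differs after infarction. In MI heart cells 6 mitochondrial ribosomal protein genes rose, by 1.6- to 1.91-fold, and 2 fell. The genes that rose were Mrpl34, Mrpl52 and Mrpl40 of the large subunit and Mrps28, Mrps18c and Mrps34 of the small subunit, and those that fell were Mrpl49 and Mrps6. Calls are limma's moderated test with Benjamini-Hochberg adjusted p under 0.05 over all tests, which called 9.54% of the 10533 tests, 4.57% higher and 4.97% lower. Of the members 8.57% were called higher and 2.86% lower. The median difference of the members was 0.21, beside -0.00 for all tests, and 61 of the 70 lay above 0. The 2 MI heart arrays lay above the 2 intact heart arrays in 36 members and below them in 3, or 51.4% and 4.29%, beside 26.1% and 28.0% of all tests. Among the 53 members above background on all 6 arrays, 5 were called higher and 1 lower, or 9.43% and 1.89% beside 4.68% and 5.49% of the tests that met the same condition. Of these 53, 46 lay above 0, and the pairs were apart upward in 28 and downward in 2 (52.8% and 3.77%, beside 25.5% and 28.4%). No member call survived the loss of either MI heart array, where far fewer tests were called on the whole array as well. The member median was then 0.18 without MI heart replicate 1 and 0.28 without replicate 2. For all tests it was -0.01 in both cases, and 55 and 60 members still lay above 0. Without intact heart replicate 1 or 2 the member median was 0.25 or 0.23. It stayed at 0.21 without either peritoneal array, which enters this comparison through the shared spread. In each of these fits fewer members and fewer of all tests were called. With scaling by array medians in place of quantile normalization, the median of all tests moved to 0.12, and 8 members rose and 0 fell (5.81% and 1.57% of all tests).

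Mrps28, the counterpart of bacterial ribosomal protein S1, had log2 signals of 5.36 and 5.21 in MI heart macrophages, 4.21 and 4.50 in intact heart macrophages and 5.29 and 5.22 in peritoneal macrophages. Intact heart cells lay well below both other groups, which overlapped each other, and 1 of the 2 intact heart arrays was above background. Mrps28 passed the detection filter in MI heart and peritoneal cells only, which favoured calls of a low intact heart level. Its difference of MI heart over intact heart was 0.93 ± 0.17 (SE), with a limma adjusted p of 0.0117. Without MI heart replicate 1 it was 0.86 and without replicate 2 it was 1.01, not called in either case. Mrps18c, one of the mammalian counterparts of bacterial S18, had 6.80 and 6.21 in MI heart macrophages, 5.80 and 5.38 in intact heart macrophages and 6.59 and 6.49 in peritoneal macrophages. The intact heart pair was again the lowest, and the MI heart pair was spread on both sides of the peritoneal pair. The difference was 0.91 ± 0.23 (SE, adjusted p = 0.0407), and it was 0.62 without MI heart replicate 1 and 1.21 without replicate 2, not called in either case. Mrps34, a mitochondria-specific protein in which human mutations cause a combined respiratory chain defect, had 8.42 and 8.38 in MI heart macrophages, 7.62 and 7.81 in intact heart macrophages and 8.93 and 8.62 in peritoneal macrophages. All 3 groups were separate, with MI heart in the middle. MI heart exceeded intact heart by 0.68 ± 0.17 (SE, adjusted p = 0.0417), and by 0.58 to 0.78 with any 1 of the 6 arrays left out, when it was not called.

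In the large subunit, Mrpl34, the counterpart of bacterial L34, had log2 signals of 5.73 and 5.96 in MI heart macrophages, 4.96 and 4.99 in intact heart macrophages and 5.78 and 5.83 in peritoneal macrophages. MI heart and peritoneal cells overlapped, and both lay above intact heart cells. The difference of MI heart over intact heart was 0.87 ± 0.16 (SE, adjusted p = 0.0121), or 1.83-fold, and it was 0.98 and 0.75 without MI heart replicate 1 and 2, not called. Mrpl40, a mitochondria-specific protein whose human gene lies in the region lost in the 22q11 deletion syndrome, had 6.39 and 6.13 in MI heart macrophages, 5.43 and 5.65 in intact heart macrophages and 6.57 and 6.52 in peritoneal macrophages. The groups did not overlap, with MI heart below peritoneal and above intact heart cells, and MI heart over intact heart was 0.72 ± 0.17 (SE, adjusted p = 0.0326). That call was lost without any array except intact heart replicate 2, at differences between 0.59 and 0.85. Mrpl52, also mitochondria-specific, had 5.84 and 5.80 in MI heart macrophages, 5.33 and 4.73 in intact heart macrophages and 5.63 and 5.50 in peritoneal macrophages. It was highest in MI heart cells, and its 2 intact heart arrays were further apart than those of the other groups. MI heart over intact heart was 0.79 ± 0.21 (SE, adjusted p = 0.0475), and without intact heart replicate 2 it was 0.49 and not called, as it was without either MI heart array (0.77 and 0.82) or either peritoneal array. Mrpl27 had the greatest positive difference among the members not called, 0.57 ± 0.19 (SE, adjusted p = 0.0992), with 5.88 and 5.54 in MI heart cells and 5.32 and 4.96 in intact heart cells.

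Mrpl49 and Mrps6 were the 2 members called lower, among 9 whose difference was below 0. Mrpl49, a mitochondria-specific protein of the large subunit, had log2 signals of 6.68 and 6.72 in MI heart macrophages, 7.51 and 7.39 in intact heart macrophages and 7.79 and 7.88 in peritoneal macrophages. MI heart cells were lowest, without overlap, and intact heart cells lay below peritoneal cells. MI heart minus intact heart was -0.76 ± 0.15 (SE, adjusted p = 0.0182), a 1.69-fold lower level in MI heart cells. A second, dimmer probe of Mrpl49 did not show it (0.06 ± 0.18, adjusted p = 0.872). Mrps6, the counterpart of bacterial S6, had 4.29 and 4.57 in MI heart macrophages, 5.02 and 5.31 in intact heart macrophages and 4.41 and 4.58 in peritoneal macrophages, above background on both intact heart arrays and on 1 array of each other group. The 2 intact heart arrays were the highest, and MI heart and peritoneal cells overlapped. Mrps6 passed the detection filter through the intact heart arrays alone, so the filter itself favoured calls of a high intact heart level. MI heart minus intact heart was -0.73 ± 0.18 (SE, adjusted p = 0.0386), and it was called without intact heart replicate 1 but not without any other array (differences between -0.87 and -0.58). Mrpl49 was not called without MI heart replicate 1 (-0.74), MI heart replicate 2 (-0.77) or intact heart replicate 1 (-0.70), or with scaling by array medians (-0.45). The most negative member not called was Mrpl50 at -0.33 ± 0.18 (SE, adjusted p = 0.3), with 5.69 and 5.84 in MI heart cells and 5.89 and 6.29 in intact heart cells.

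**Figure D3:**
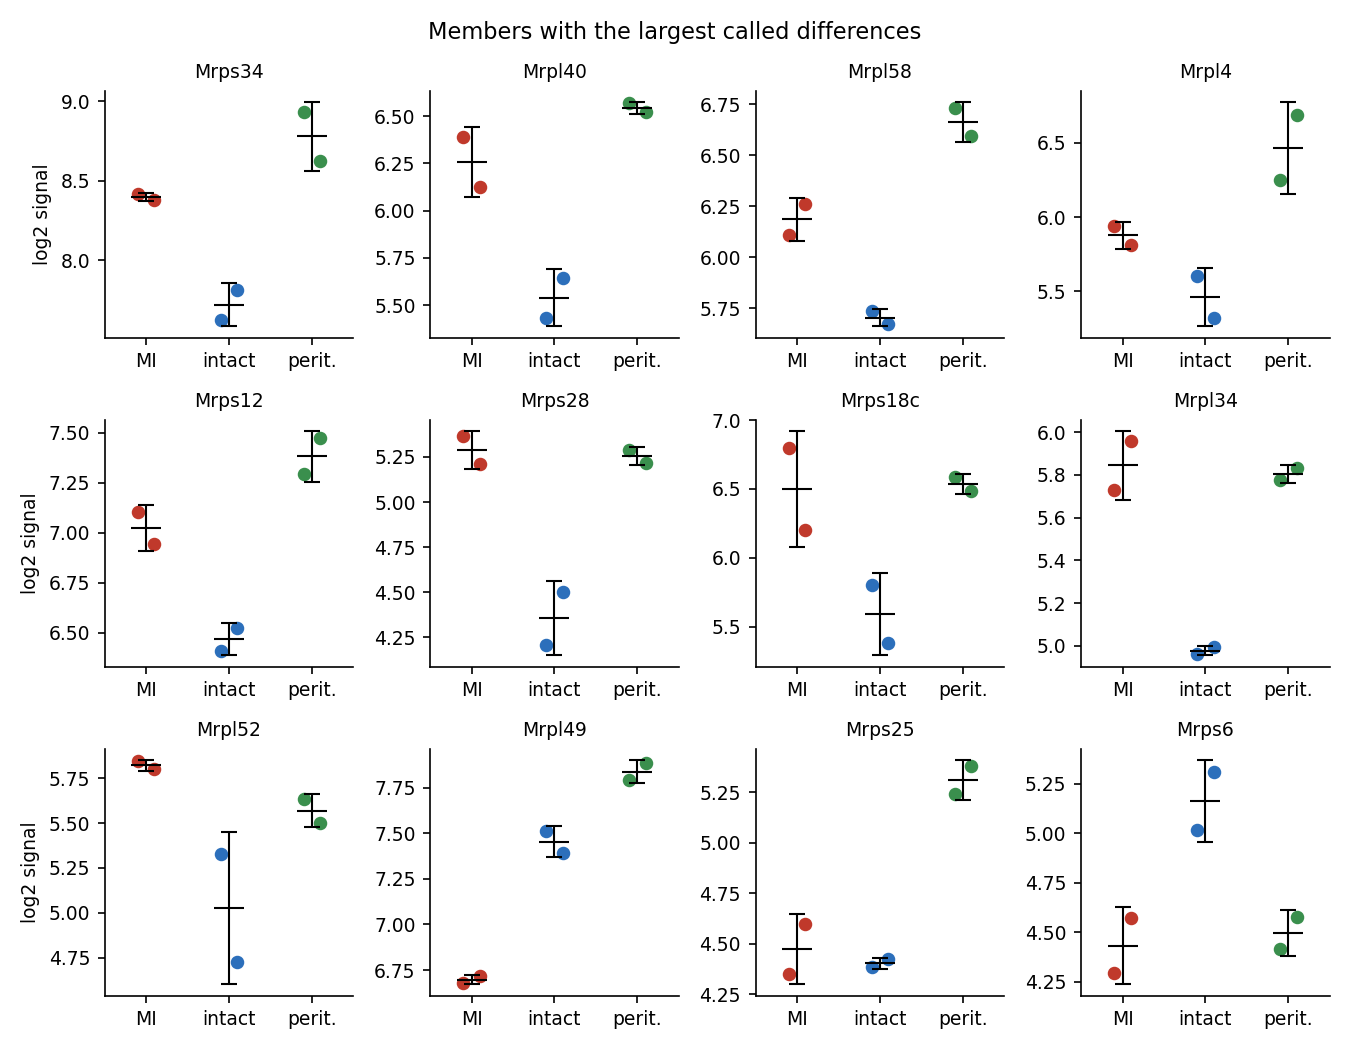
Log2 signal (vertical axes, each panel with its own range that does not start at 0) of 12 mitochondrial ribosomal protein genes in MI heart, intact heart and peritoneal (perit.) macrophages. Points are the 2 arrays of a group, the long bar is their mean and the whiskers are ± SD. In 10 panels intact heart has the lowest mean, in Mrps25 by little, while MI heart is lowest for Mrpl49 and Mrps6.

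Intact heart macrophages were compared with peritoneal macrophages. The titles of the peritoneal samples do not say whether those mice had an infarction. Of the 70 members 24 fell in intact heart cells, 13 of the large and 11 of the small subunit, and 1, Mrps6, rose. This was 34.3% called lower and 1.43% called higher, beside 12.9% and 12.6% of all tests (25.4% in either direction). The median difference of the members was -0.47, beside -0.03 for all tests, and 67 of the 70 lay below 0. The intact heart arrays lay below the peritoneal arrays in 54 members and above them in 1, or 77.1% and 1.43%, against 33.5% and 29.8% of all tests. Of the large subunit 30.2% and of the small subunit 40.7% was called lower. Among the 53 members above background on all 6 arrays 20 were called lower, 37.7% beside 14.1% of the tests that met the same condition, and 0 higher, with 52 of the 53 below 0 and the pairs apart downward in 41 (77.4% beside 33.5%). Of all 70 members 38 had an unadjusted p under 0.05, or 54.3% beside 37.9% of all tests. Without peritoneal replicate 1 there were 10 members called lower (6.39% of all tests) and without peritoneal replicate 2 there were 11 (7.20%), with 65 and 64 of 70 still below 0. With scaling by array medians the median of all tests moved to -0.18, and 37 members fell and 0 rose (18.2% and 7.04% of all tests).

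The largest fall was that of Mrps34, whose array values are given above, at -1.06 ± 0.17 (SE, adjusted p = 0.00233), or 2.08-fold lower in intact heart cells. Of the 8 members called for MI heart over intact heart, 5 were called lower here, namely Mrps34, Mrpl40 at -1.01 ± 0.17, adjusted p = 0.0028, Mrps18c at -0.95 ± 0.23, adjusted p = 0.0166, Mrps28 at -0.90 ± 0.17, adjusted p = 0.00496 and Mrpl34 at -0.83 ± 0.16, adjusted p = 0.00551. Both comparisons use the same 2 intact heart arrays, so they are not independent of each other. Mrpl52, at -0.54 ± 0.21, adjusted p = 0.0913, and Mrpl49, at -0.38 ± 0.15, adjusted p = 0.0999, were not called, and Mrps6 rose. Mrps18c was not called without intact heart replicate 2 (-0.74), peritoneal replicate 1 (-0.90) or peritoneal replicate 2 (-1.00).

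Mrpl58, which releases peptides from stalled ribosomes and was recruited to the ribosome from the release factor family, had log2 signals of 6.11 and 6.26 in MI heart macrophages, 5.74 and 5.67 in intact heart macrophages and 6.73 and 6.59 in peritoneal macrophages. The 3 groups were separate, with intact heart lowest, and intact heart minus peritoneal was -0.96 ± 0.16 (SE, adjusted p = 0.00242). Mrpl4, counterpart of bacterial L4 of the tunnel wall, had 5.94 and 5.81 in MI heart macrophages, 5.60 and 5.32 in intact heart macrophages and 6.25 and 6.69 in peritoneal macrophages. Intact heart was again lowest and did not overlap MI heart, which lay below the peritoneal pair. The difference of intact heart minus peritoneal was -1.01 ± 0.20 (SE, adjusted p = 0.00587), and without peritoneal replicate 2 it was -0.79 and not called. Mrpl17, counterpart of bacterial L17, had 7.18 and 7.03 in MI heart macrophages, 7.19 and 6.67 in intact heart macrophages and 8.13 and 7.60 in peritoneal macrophages. Peritoneal cells were highest and the heart groups overlapped. Intact heart minus peritoneal was -0.93 ± 0.24 (SE, adjusted p = 0.0197), and it was not called without intact heart replicate 2 (-0.67) or peritoneal replicate 1 (-0.66).

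Mrpl33, counterpart of bacterial L33, had the signals 8.51 and 8.13 in MI heart macrophages, 8.33 and 7.89 in intact heart macrophages and 9.06 and 8.91 in peritoneal macrophages. Peritoneal cells stood apart from both heart groups, which overlapped, and intact heart minus peritoneal was -0.88 ± 0.21 (SE, adjusted p = 0.0145). Without intact heart replicate 2 it was -0.66, and without peritoneal replicate 1 or 2 it was -0.80 or -0.95, not called in these 3 cases. Mrps12, counterpart of bacterial S12 in the decoding centre, had 7.11 and 6.94 in MI heart macrophages, 6.41 and 6.53 in intact heart macrophages and 7.29 and 7.47 in peritoneal macrophages. The 3 groups were in the common order without overlap. Intact heart lay -0.92 ± 0.16 (SE, adjusted p = 0.00365) from peritoneal cells. Mrps25, mitochondria-specific, had 4.35 and 4.60 in MI heart macrophages, 4.39 and 4.42 in intact heart macrophages and 5.24 and 5.38 in peritoneal macrophages. Both heart groups were near the background and overlapped, and the peritoneal pair stood apart. Its probe was not above background on either intact heart array, so the intact heart level was at least 1.76-fold lower than the peritoneal level, with an adjusted p of 0.00409. Mrps25 passed the detection filter through the peritoneal arrays alone, so the filter itself favoured this call.

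The one member that rose in intact heart over peritoneal cells was Mrps6, by 0.67 ± 0.18 (SE, adjusted p = 0.0267), a call that was lost without intact heart replicate 2, peritoneal replicate 1 or peritoneal replicate 2 (0 members higher in each case). As Mrps6 passed the detection filter through the intact heart arrays alone, the filter itself favoured its call. Mrpl20, a large-subunit protein, had the most positive difference among those not called, 0.25 ± 0.24 (SE, adjusted p = 0.484), with 5.09 and 4.54 in intact heart cells and 4.42 and 4.71 in peritoneal cells, which overlap. Mrps24 had the most negative, -0.70 ± 0.31 (SE, adjusted p = 0.138), with 7.82 and 6.75 in intact heart cells and 8.19 and 7.77 in peritoneal cells. Its first intact heart array was near the peritoneal pair and its second was low, and without intact heart replicate 1 the difference was -1.24 and called.

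**Figure D4:**
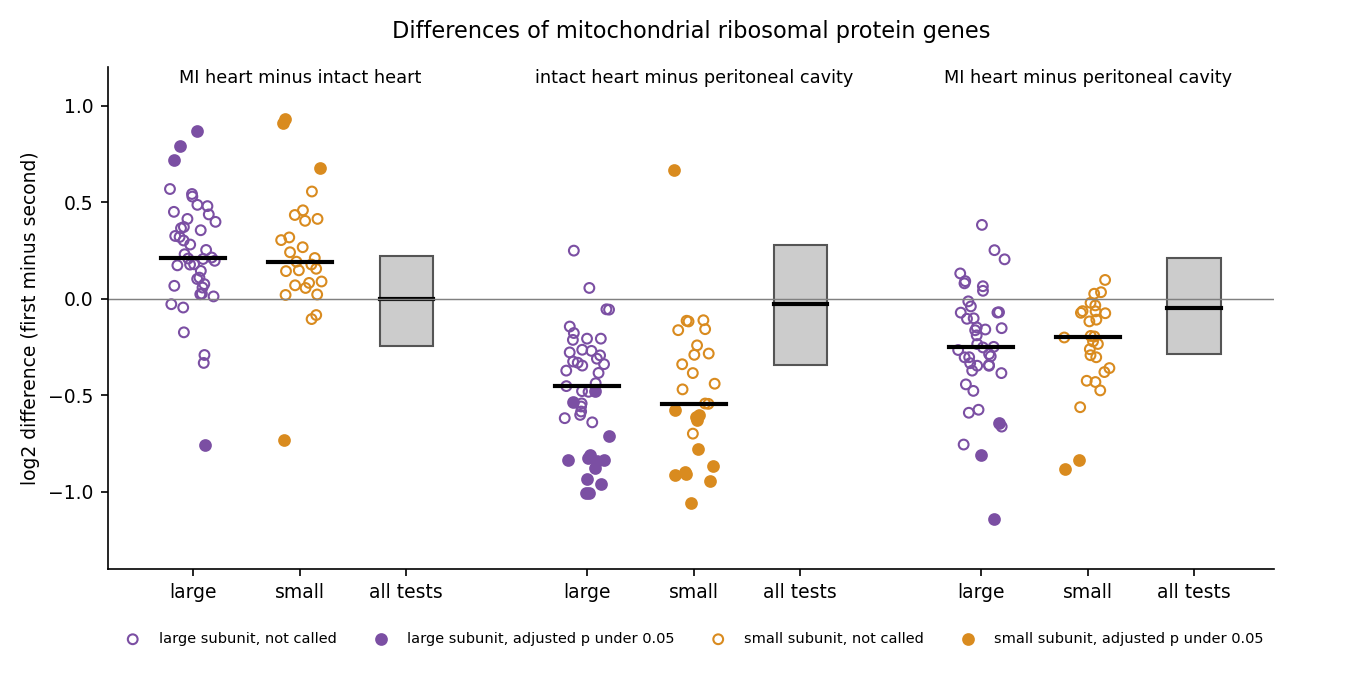
Log2 difference (vertical axis, first group minus second) of each tested mitochondrial ribosomal protein gene in the 3 comparisons. Purple points are large-subunit genes, orange points small-subunit genes, filled where the adjusted p was under 0.05; black bars are medians, and the grey box spans the quartiles of all 10533 tests. Medians are 0.21 and 0.19 for MI heart minus intact heart, -0.45 and -0.54 for intact heart minus peritoneal cavity and -0.25 and -0.20 for MI heart minus peritoneal cavity (large, then small subunit).

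MI heart macrophages compared with peritoneal macrophages showed fewer calls. Of the 70 members 5 fell in MI heart cells (Mrpl49, Mrpl50 and Mrpl2 of the large, Mrps31 and Mrps25 of the small subunit) and 0 rose by limma's test. At an unadjusted p under 0.05 there were 14 members in either direction, 20% beside 29.5% of all tests. The share called lower was 7.14% beside 8.47% of all tests, where 9.17% were called higher and 17.6% in either direction, so the count of falls was near the background. The median difference was -0.23 beside -0.05 for all tests, and 59 of the 70 lay below 0. The MI heart pair lay below the peritoneal pair in 38 members and above it in 3, or 54.3% and 4.29%, beside 33.7% and 27.3% of all tests. Of the 53 members above background on all arrays 4 fell, 7.55% beside 9.04% of the tests that met the same condition, 46 lay below 0, and the pairs were apart downward in 31 (58.5% beside 34.2%). Without any 1 of the 4 arrays compared, 2 members were called lower, or 2.86%, and 0 higher, where 3.45% to 4.34% of all tests were called lower.

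Mrpl49 had the largest fall, -1.14 ± 0.15 (SE, adjusted p = 0.00099), or 2.2-fold lower in MI heart cells, and its second probe gave -0.01 ± 0.18, adjusted p = 0.972. Mrpl50, a mitochondria-specific protein, had log2 signals of 5.69 and 5.84 in MI heart macrophages, 5.89 and 6.29 in intact heart macrophages and 6.62 and 6.53 in peritoneal macrophages. MI heart was lowest and peritoneal highest without overlap, with a difference of -0.81 ± 0.18 (SE, adjusted p = 0.015) that was not called without any 1 of the 4 arrays. Mrps31, mitochondria-specific and placed in the head of the small subunit, had 6.20 and 5.99 in MI heart macrophages, 6.07 and 6.32 in intact heart macrophages and 6.97 and 6.97 in peritoneal macrophages. The heart groups overlapped below the peritoneal pair, and MI heart minus peritoneal was -0.88 ± 0.17 (SE, adjusted p = 0.00675). It was not called without MI heart replicate 2 (-0.78) or without either peritoneal array (-0.88 in both cases). Mrps25 was -0.84 ± 0.16 (SE, adjusted p = 0.00773) and was not called without MI heart replicate 1 (-0.71) or peritoneal replicate 2 (-0.77). Because Mrps25 passed the detection filter through the peritoneal arrays alone, the filter itself favoured its call here too. Mrpl2, counterpart of the bacterial L2 beside the peptidyl transferase centre, had 5.80 and 5.74 in MI heart macrophages, 5.61 and 5.53 in intact heart macrophages and 6.61 and 6.21 in peritoneal macrophages. The 3 groups did not overlap, and MI heart minus peritoneal was -0.65 ± 0.18 (SE, adjusted p = 0.0367), not called without MI heart replicate 1 (-0.68), MI heart replicate 2 (-0.61) or peritoneal replicate 1 (-0.45). Among members not called, Mrpl17 was the most negative at -0.76 ± 0.24 (SE, adjusted p = 0.0595) and Mrpl54 the most positive at 0.38 ± 0.18 (SE, adjusted p = 0.195).

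By role, the 3 stalk proteins, which recruit translation factors to the large subunit, gave 1 call. Over all tests 25.4% were called in either direction for intact heart against peritoneal cells. The share was 9.54% for MI heart over intact heart and 17.6% for MI heart against peritoneal cells, so counts in such small lists say little about a role. Mrpl11, at the base of the stalk, had log2 signals of 5.03 and 4.92 in MI heart macrophages, 4.40 and 4.49 in intact heart macrophages and 5.34 and 5.21 in peritoneal macrophages, above background on 1 of the 2 intact heart arrays. Its groups did not overlap, and it fell in intact heart cells against peritoneal cells (-0.83 ± 0.16, adjusted p = 0.00476), while MI heart over intact heart was 0.53 ± 0.16, adjusted p = 0.0673. The detection filter, which Mrpl11 passed in MI heart and peritoneal cells only, favoured its call. Mrpl10, which anchors the stalk, was -0.58 ± 0.30, adjusted p = 0.187 for intact heart minus peritoneal, with a wide spread of 6.21 and 5.41 between the intact heart arrays and 6.64 and 6.14 between the peritoneal arrays. It was called without intact heart replicate 1 (-0.98). Mrpl12, the stalk protein that also binds the mitochondrial RNA polymerase, was -0.21 ± 0.17, adjusted p = 0.398. For MI heart over intact heart the 3 differences lay between 0.17 and 0.53 and for MI heart minus peritoneal between -0.30 and -0.04, none called.

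Of the proteins around the exit tunnel, Mrpl4 of its wall was called lower in intact heart against peritoneal cells, as given above, while Mrpl22, Mrpl23, Mrpl24 and Mrpl47 gave 0 calls in the 3 comparisons, and 0 of these 4 had an unadjusted p under 0.05. For intact heart against peritoneal cells 25.4% of all tests were called and 37.9% had an unadjusted p under 0.05. These shares were 9.54% and 25.1% for MI heart over intact heart and 17.6% and 29.5% for MI heart against peritoneal cells. Mrpl45, which holds the tunnel exit to the inner membrane, was not above background on any array and was not tested. The differences of these 4 for intact heart minus peritoneal lay between -0.48 for Mrpl47 and 0.06 for Mrpl22. Mrpl22 had 5.01 and 4.94 in MI heart macrophages, 5.16 and 4.75 in intact heart macrophages and 4.84 and 4.95 in peritoneal macrophages, and its groups overlapped throughout. Mrpl23 had 7.39 and 7.30 in MI heart cells, 7.50 and 7.07 in intact heart cells and 7.59 and 7.60 in peritoneal cells, with the peritoneal pair the highest. Mrpl24 differed by 0.30 ± 0.17, adjusted p = 0.317 in MI heart over intact heart and Mrpl47 by 0.11 ± 0.22, adjusted p = 0.816. Mrpl47 passed the test for intact heart minus peritoneal without intact heart replicate 1 (-0.82).

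Of the proteins at the decoding centre and the mRNA entry, Mrps12 was called in 1 comparison, as described, and Mrps5 and Mrps24 in none. The comparison that called Mrps12, intact heart against peritoneal cells, called 25.4% of all tests. Mrps5, which lines the mRNA entry and affects decoding accuracy, was nearly level, with 5.37 and 5.24 in MI heart macrophages, 5.48 and 5.30 in intact heart macrophages and 5.63 and 5.37 in peritoneal macrophages. Its differences were -0.08 ± 0.17, adjusted p = 0.817 for MI heart over intact heart and -0.11 ± 0.17, adjusted p = 0.674 for intact heart minus peritoneal. Mrps30 and Mrps18a carry small-subunit symbols but sit in the large subunit in solved structures. Mrps30 had 6.92 and 6.93 in MI heart macrophages, 6.90 and 6.59 in intact heart macrophages and 7.37 and 7.33 in peritoneal macrophages, with the peritoneal pair apart from both heart pairs, and fell in intact heart against peritoneal cells (-0.60 ± 0.17, adjusted p = 0.0281), a call lost without any array except intact heart replicate 1, at differences between -0.63 and -0.45. Mrps18a was -0.54 ± 0.21, adjusted p = 0.0888 in the same comparison and 0.43 ± 0.21, adjusted p = 0.235 for MI heart over intact heart, not called.

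The medians of proteins with a bacterial counterpart and of mitochondria-specific ones had the same sign. For intact heart minus peritoneal, 9 of 28 tested large-subunit proteins with a counterpart fell (median -0.47) and 4 of 15 mitochondria-specific ones fell (median -0.38). In the small subunit 6 of 16 with a counterpart fell and 1 rose (median -0.49), and 4 of 9 mitochondria-specific ones fell (median -0.47). For MI heart over intact heart, 1 of 28 and 2 of 15 large-subunit genes rose and 0 and 1 fell (medians 0.21 and 0.25), and in the small subunit 2 of 16 and 1 of 9 rose and 1 and 0 fell (medians 0.20 and 0.14). For MI heart minus peritoneal, 1 of 28 and 2 of 15 in the large subunit and 0 of 16 and 2 of 9 in the small subunit fell, with medians of -0.25, -0.23, -0.20 and -0.22. Over all tests 12.9% were called lower in intact heart against peritoneal cells, 4.57% higher and 4.97% lower in MI heart over intact heart and 8.47% lower in MI heart against peritoneal cells. No difference between these classes was tested.

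Of the 76 genes, 19 had more than 1 probe past the filter, and in a limma fit of all 14817 probes, with p adjusted over them, their probes gave 0 opposite calls in the 3 comparisons. The probes of a gene gave the same call in 16, 14 and 16 of the 19 genes for MI heart over intact heart, intact heart over peritoneal and MI heart over peritoneal. For Mrpl33 the second probe fell further in intact heart against peritoneal cells (-1.30 ± 0.16, adjusted p = 0.000565) and was also called higher in MI heart over intact heart (0.68 ± 0.16, adjusted p = 0.0353) and lower in MI heart against peritoneal cells (-0.62 ± 0.16, adjusted p = 0.0311). The second probe of Mrps33, a mitochondria-specific gene, was called higher in MI heart over intact heart (0.75 ± 0.17, adjusted p = 0.0293), where the brighter probe was not (0.46 ± 0.16, adjusted p = 0.125). For intact heart minus peritoneal, the brighter probe was called lower and another was not for Mrpl18, Mrpl48, Mrps12, Mrps15 and Mrps31. The values of the brighter probe of Mrpl18 were -0.83 ± 0.24, adjusted p = 0.0315, and those of its second probe -0.59 ± 0.22, adjusted p = 0.0797. For Mrps12 they were -0.92 ± 0.16, adjusted p = 0.00351 and -0.58 ± 0.19, adjusted p = 0.0515, for Mrps15 -0.61 ± 0.16, adjusted p = 0.0224 and -0.33 ± 0.18, adjusted p = 0.207, and for Mrps31 -0.78 ± 0.17, adjusted p = 0.0095 and -0.41 ± 0.17, adjusted p = 0.118. Mrpl48 had -0.54 ± 0.16, adjusted p = 0.0393 for its brighter probe, and 0 of its 2 other probes was called. The brighter probe of Mrpl48 was not called without intact heart replicate 1 (-0.52), intact heart replicate 2 (-0.55), peritoneal replicate 1 (-0.66) or 2 (-0.41) or either MI heart array. For Mrps15 the call was lost without intact heart replicate 1 (-0.52) or peritoneal replicate 1 (-0.67) or 2 (-0.56), and for Mrps31 without either peritoneal array (-0.78 in both cases). Mrps31 showed the same split for MI heart minus peritoneal (-0.88 ± 0.17, adjusted p = 0.00656, and -0.28 ± 0.17, adjusted p = 0.342). As a gene, Mrps15 passed the detection filter in MI heart and peritoneal cells only, which favoured its call.

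Since the members shared an order of groups, the DNA before their start sites was read. RefSeq promoter windows of 300 bases (GRCm38.p6) were at hand for 67 of the 76 genes and 27025 genes in all. They were searched on both strands for GCATGCGC, the core of the site of NRF1, a factor known for driving nuclear genes of mitochondria, for CCGGAAGT, a site of ETS factors such as GABPA, and for AAGATGGCG, a site of YY1. The NRF1 letters were in 8 member windows (11.9%, against 3.05% of all genes), the ETS letters in 12 (17.9%, against 4.31%) and the YY1 letters in 8 (11.9%, against 1.64%). Any of the 3 was in 26 (38.8%, against 8.47%). The 27025 genes were not limited to those detected on these arrays, and the shares among detected genes were not computed. Member windows were also richer in G and C than those of all genes (median 58.7% against 52.7%) and in CpG (7.0 against 2.33 per 100 bases), and the part of base composition in these shares was not tested. NRF1 letters were in 7 of 42 large-subunit windows and 1 of 25 small-subunit windows. The windows of Mrps18c, Mrpl52, Mrpl33 and Mrps11 are shown with matches in capitals. The first 3 are examples of called members that hold a match, not a full list. The last is shown because it serves a pair of members back to back.
Mrps18c, chr5:100798509-100798808, + strand, an ETS match on the other strand whose first base is 157 bases before the start site: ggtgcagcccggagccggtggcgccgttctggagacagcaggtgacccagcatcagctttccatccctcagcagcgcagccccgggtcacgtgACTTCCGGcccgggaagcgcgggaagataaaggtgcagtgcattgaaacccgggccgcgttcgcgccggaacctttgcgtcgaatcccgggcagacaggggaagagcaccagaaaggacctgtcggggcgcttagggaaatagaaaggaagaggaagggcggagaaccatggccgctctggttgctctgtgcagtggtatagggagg
Mrpl52, chr14:54426659-54426958, + strand, an ETS match on the other strand at the start site: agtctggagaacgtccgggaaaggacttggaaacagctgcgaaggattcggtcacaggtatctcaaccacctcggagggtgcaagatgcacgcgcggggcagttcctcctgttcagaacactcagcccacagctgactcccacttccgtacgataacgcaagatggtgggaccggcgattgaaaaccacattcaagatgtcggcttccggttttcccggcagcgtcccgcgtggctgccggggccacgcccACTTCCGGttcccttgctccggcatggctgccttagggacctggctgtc
Mrpl33, chr5:31613701-31614000, + strand, an NRF1 match on the other strand 12 bases before the start site and an ETS match 3 bases before it: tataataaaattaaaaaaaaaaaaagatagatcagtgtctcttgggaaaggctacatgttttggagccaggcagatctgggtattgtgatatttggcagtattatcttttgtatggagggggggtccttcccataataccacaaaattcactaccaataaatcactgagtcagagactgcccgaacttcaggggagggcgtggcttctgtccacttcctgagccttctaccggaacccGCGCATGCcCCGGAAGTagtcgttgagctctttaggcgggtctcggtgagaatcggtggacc
Mrps11, chr7:78782881-78783180, + strand, a YY1 match on the other strand 108 bases before the start site, with the start of Mrpl46 on the other strand inside the window: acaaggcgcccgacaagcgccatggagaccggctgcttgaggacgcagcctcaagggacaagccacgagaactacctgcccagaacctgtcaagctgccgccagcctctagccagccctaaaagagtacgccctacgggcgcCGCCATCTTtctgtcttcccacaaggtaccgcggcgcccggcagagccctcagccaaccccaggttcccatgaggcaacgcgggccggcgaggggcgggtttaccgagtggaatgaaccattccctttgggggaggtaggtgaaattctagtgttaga

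The medians of members with and without such letters lay close together, and their difference was not tested. Among the 61 tested members with a window, the median of MI heart over intact heart was 0.25 for the 23 with a match and 0.19 for the 38 without. For intact heart minus peritoneal it was -0.54 with and -0.48 without, and for MI heart minus peritoneal -0.22 with and -0.24 without. Of the 24 members that fell in intact heart against peritoneal cells 21 had a window and 7 of these a match, and of the 6 that rose in MI heart over intact heart 4 had a window and 2 a match. A match is a run of letters and does not show that a factor binds there.

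Many members start back to back with another gene. A gene on the opposite strand started within 1000 bases and pointed away in 25 of 67 members (37.3%), against 12.3% of all genes with a window. Here too the comparison was not limited to genes detected on these arrays. The 2 members Mrps11 and Mrpl46 start 42 bases apart, and the window above covers both start sites. Mrpl46 had log2 signals of 5.60 and 5.59 in MI heart macrophages, 4.97 and 5.58 in intact heart macrophages and 5.82 and 5.98 in peritoneal macrophages, and Mrps11 had 4.54 and 4.51 in MI heart macrophages, 4.25 and 4.41 in intact heart macrophages and 4.62 and 4.81 in peritoneal macrophages. Both had the common order of groups, with intact heart minus peritoneal at -0.62 ± 0.21, adjusted p = 0.061 for Mrpl46 and with Mrps11 at least 1.17-fold lower in intact heart cells, where its probe was not above background (adjusted p = 0.113), neither called. For Mrpl2 the partner was Klc4, which encodes a kinesin light chain, at a distance of 141 bases. Klc4 had 5.54 and 5.83 in MI heart macrophages, 5.87 and 5.88 in intact heart macrophages and 5.39 and 5.30 in peritoneal macrophages, so it was highest in intact heart cells and lowest in peritoneal cells, without overlap of these pairs. Its difference of intact heart over peritoneal was 0.53 ± 0.17, adjusted p = 0.0447, while Mrpl2 was -0.84 ± 0.18, adjusted p = 0.00873. Mrpl18 starts 238 bases from Tcp1, a subunit of the cytosolic chaperonin, and Tcp1 was -0.22 ± 0.20, adjusted p = 0.461 where Mrpl18 was -0.83 ± 0.24, adjusted p = 0.0319. Without intact heart replicate 1 Mrpl18 was -0.48, without peritoneal replicate 1 -0.99 and without peritoneal replicate 2 -0.68, none called.

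In the annotation Mrps6 overlaps Slc5a3, which encodes a sodium and myo-inositol cotransporter. Slc5a3 had log2 signals of 4.22 and 4.32 in MI heart macrophages, 5.45 and 5.05 in intact heart macrophages and 4.12 and 4.19 in peritoneal macrophages. As for Mrps6, the intact heart pair was apart and above both other groups. Its probe was not above background on any MI heart or peritoneal array. It was at least 1.75-fold lower in MI heart than in intact heart cells (adjusted p = 0.012) and at least 1.76-fold higher in intact heart than in peritoneal cells (adjusted p = 0.00236), the directions in which Mrps6 was called. Whether a transcript that both genes share lies behind the 2 probes was not tested. Both genes passed the detection filter through the intact heart arrays alone, so the filter itself favoured calls in these directions. This pair was singled out after its values were seen.

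**Figure D5:**
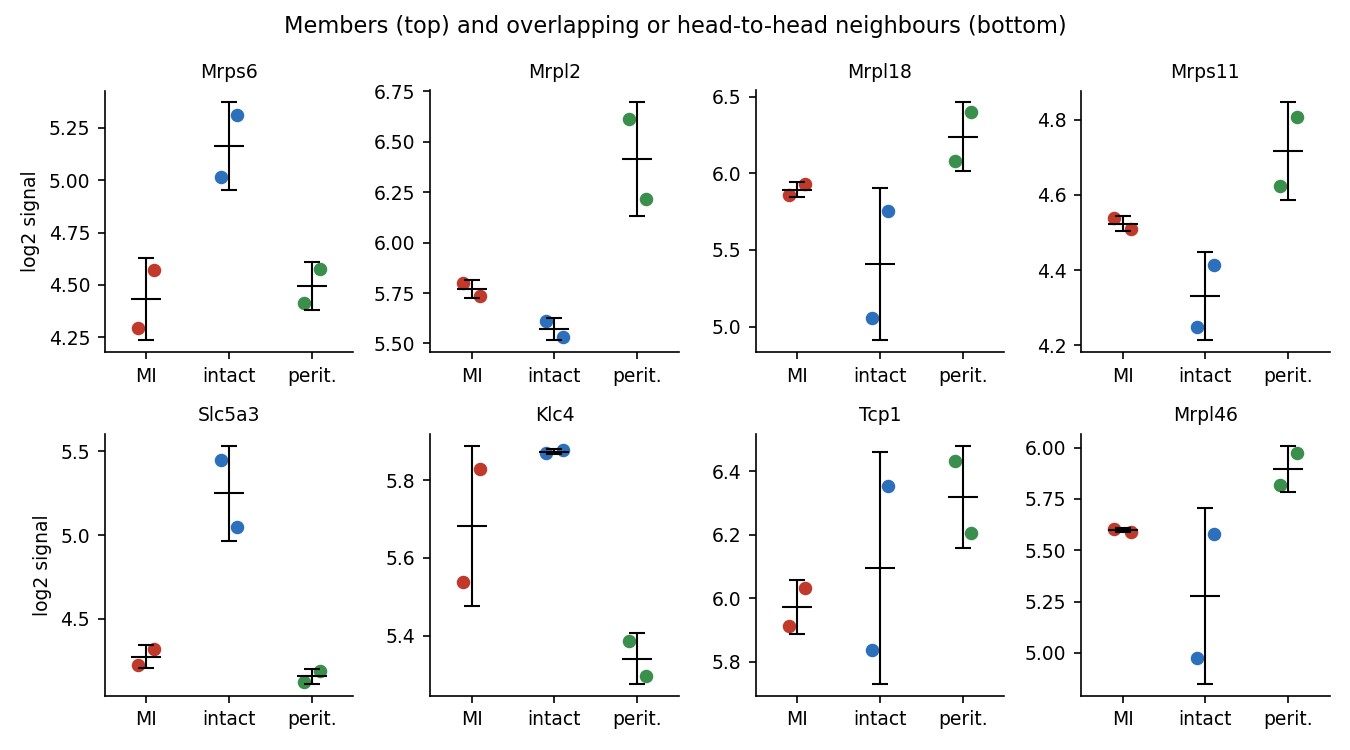
Log2 signal (vertical axes, each panel with its own range that does not start at 0) of 4 members in the top row and of the gene that overlaps or starts back to back with each in the bottom row. Points are the 2 arrays of MI heart, intact heart and peritoneal (perit.) macrophages, the long bar is their mean and the whiskers are ± SD. Slc5a3 has the pattern of Mrps6 above it with intact heart highest, and Klc4 is lowest in peritoneal cells where Mrpl2 above it is highest.

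Other genes of mitochondrial gene expression were read from short lists by role, chosen with earlier results of these data known. For MI heart over intact heart 4 of the lists were near level, beside the median of 0.21 of the ribosomal proteins. Medians were -0.04 for 8 tested translation factors, -0.03 for 12 mitochondrial aminoacyl-tRNA synthetases, -0.10 for 13 genes of ribosome assembly and rRNA modification and -0.06 for 11 of mitochondrial transcription and RNA stability, with 0 calls among them. Many genes of these lists were dim, such as Guf1 with 4.33 and 4.41 in MI heart and 4.52 and 4.29 in intact heart cells. The median levels of the 2 subunits lay between 5.11 and 5.77 on the heart arrays. The part of low signal in the near-level medians was not tested. The 3 tested ribosomal proteins with other symbols (Dap3, Chchd1 and Gadd45gip1) had a median of 0.30 with 0 calls. Over all tests 4.57% were called higher and 4.97% lower in this comparison. Among 6 tested regulators of mitochondrial biogenesis 1 rose, Ppargc1b, a coactivator of nuclear genes for mitochondria. It had 5.35 and 5.24 in MI heart macrophages, 4.51 and 4.30 in intact heart macrophages and 4.92 and 4.81 in peritoneal macrophages, with the MI heart pair apart from the intact heart pair. It was not above background on either intact heart array, so it was at least 1.74-fold higher in MI heart cells (adjusted p = 0.0119). Ppargc1b could thus not pass the detection filter through the intact heart arrays, which favoured a call in this direction.

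For intact heart minus peritoneal, 2 of 8 translation factors fell (median -0.33), 1 of 12 synthetases (Tars2, the threonyl-tRNA synthetase, not above background in intact heart cells, median of the list -0.14), 3 of 13 assembly genes (median -0.15) and 3 of 11 transcription and stability genes (median -0.47), and 0 of these rose. Over all tests 12.9% fell and 12.6% rose. The 2 translation factors were Mtif3, an initiation factor (-1.11 ± 0.16, adjusted p = 0.00121), and Tufm, the elongation factor that brings in aminoacyl-tRNA (-0.73 ± 0.17, adjusted p = 0.0146). Tufm had 7.53 and 7.44 in MI heart macrophages, 7.66 and 7.40 in intact heart macrophages and 8.14 and 8.37 in peritoneal macrophages, so the heart groups were both below peritoneal cells. In assembly Mrm3, an rRNA methyltransferase, was not above background in intact heart cells and was at least 1.61-fold lower there (adjusted p = 0.0038), and Mterf4, which guides an rRNA methyltransferase, was -0.70 ± 0.21, adjusted p = 0.0378. Mrm3 passed the detection filter through the peritoneal arrays alone, and Tars2 could not pass it through the intact heart arrays. The filter itself thus favoured these calls of Mrm3 and Tars2, which bears on the counts of falls. The transcription factor genes Mterf1a and Mterf1b, near-identical copies in the mouse whose probes may read the same transcripts, were -1.73 ± 0.18, adjusted p = 0.000181 and -1.49 ± 0.25, adjusted p = 0.00308. Among the regulators Gabpa, an ETS factor, fell (-0.84 ± 0.18, adjusted p = 0.00977) and Pprc1, a coactivator, rose (0.87 ± 0.26, adjusted p = 0.0355). Gabpa had 4.99 and 4.77 in MI heart macrophages, 4.60 and 4.36 in intact heart macrophages and 5.47 and 5.17 in peritoneal macrophages, lowest in intact heart cells.

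For MI heart minus peritoneal, 3 of 8 translation factors fell (median -0.37), 0 of 12 synthetases (median -0.18), 2 of 13 assembly genes (median -0.26), 2 of 11 transcription and stability genes (median -0.45) and 0 of 6 regulators, and 0 genes of these lists rose, where 8.47% of all tests fell and 9.17% rose. Mtif3 was -1.09 ± 0.16, adjusted p = 0.00168 and Tufm -0.76 ± 0.17, adjusted p = 0.0151. In assembly Mterf4 was -1.42 ± 0.21, adjusted p = 0.00165 and Mrm3, not above background in MI heart cells, was at least 1.68-fold lower there (adjusted p = 0.00463), and Mterf1a and Mterf1b were -2.11 ± 0.18, adjusted p = 7.61e-05 and -1.72 ± 0.25, adjusted p = 0.00179. Since Mrm3 passed the detection filter through the peritoneal arrays alone, the filter itself favoured its call. The 3 ribosomal proteins with other symbols gave 0 calls against peritoneal cells in either heart group, with medians of -0.13 for MI heart and -0.58 for intact heart.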

How the data were processed

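RNA of macrophages was measured on 6 Illumina bead arrays, 2 for each of 3 groups. Per the labels, RNA was extracted with Trizol and labelled as biotinylated cRNA. The authors deposited, for each array, intensity values on a linear scale that were neither normalized nor background-subtracted, and beside them a detection p-value per probe (45281 probes), and 0 columns with sample values were left unused. No source used here names the scanner software or a genome build. Gene symbols came from the platform table, where 1 symbol stood for 34885 probes, several for 18 and none for the other 10378. The deposited series matrix holds the authors' normalized intensity values, in which the replicate numbers of MI heart and peritoneal cavity are swapped relative to the signal table, whose numbers are used here.

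With limma 3.58.1 in R 4.3.3, background was corrected from the detection p-values (offset 16), log2 taken and quantile normalization applied. Probes with a detection p under 0.05 on both arrays of 1 or more groups were kept (14817). For each gene the probe with the highest mean was used, giving 10533 tests (8244 named genes, 2289 unnamed probes). Group means of all 6 arrays were fitted with lmFit and eBayes (3 residual, 5.79 prior degrees of freedom), two-sided, adjusted by Benjamini-Hochberg over all tests with a threshold of 0.05. The procedure was tested on simulated data. A fold against a group with no array above background is a bound, computed from the lowest signal above background on each array or the gene's own, if higher.

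Named genes are, in each comparison and subunit, the 5 called members with the largest differences whose replicates do not overlap, the most extreme member not called in each direction, the role lists, members whose probes disagree, and from each pathway list the 2 largest calls per direction. Others are named as array members or neighbours. Members and lists were chosen with earlier results of these data known. Alternatives were other background corrections, scalings, filters, probe rules and fits, a replicate block and the loss of each array. The number of arrays limits the precision.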

Additional observations from a re-analysis of the deposited data

How the results depend on the processing

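The member medians kept their sign in all 3 comparisons under every alternative run, between 0.10 and 0.43 for MI heart over intact heart, -0.68 and -0.20 for intact heart minus peritoneal and -0.27 and -0.10 for MI heart minus peritoneal, and 0 called values changed sign. The gap between subunits, which has no test, did change sign. Of the named calls, 0 of 8, 7 of 16 and 1 of 5 kept their call under every alternative in the 3 comparisons in that order. For MI heart over intact heart, 2 members rose with no filter on dim probes or with only the compared groups in the fit, where the background also called fewer tests (1.43% and 5.64%). Those that fell were 1 with an offset of 50, with uncorrected background, with the series matrix, with no filter, with detection p under 0.01 on all arrays, with the mean of all probes, with only the compared groups and among members above background on all arrays (an alternative chosen after seeing the data), and 0 with scaling by array medians. For intact heart over peritoneal, 0 rose with no background correction, scaling by medians, series matrix values, an offset of 50, no filter, detection p under 0.01 and among members above background on all arrays, and 37 fell with scaling by medians. For MI heart minus peritoneal, 3 fell with no filter, and the F test then called 11. The gap between subunits, large minus small, was 0.068 with scaling by medians for MI heart over intact heart. For intact heart minus peritoneal it was -0.0091 with subunits by structure, -0.0197 with no background correction, -0.038 with scaling by medians, -0.00804 with an offset of 50 and -0.021 in the series matrix. For MI heart minus peritoneal it was 0.0036 with scaling by medians, 0.022 with no filter, 0.030 with detection p under 0.01, 0.061 with the mean of all probes and 0.034 among members above background on all arrays. Over all tests MI heart over intact heart called 481 higher and 524 lower, against 200 and 222 with no filter, 248 and 322 with detection p under 0.01 and 289 and 305 with only the compared groups, and lower calls were 330 with no background correction, 165 with scaling by medians and 326 in the series matrix. Intact heart over peritoneal called 1322 higher and 1355 lower, against 771 and 757 with detection p under 0.01, and 741 higher with scaling by medians. MI heart over peritoneal called 966 higher and 892 lower, against 537 and 517 with detection p under 0.01, and 583 higher with no filter. The cause of these moves was not tested, except that a stricter or absent filter changes how many genes are tested.

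With each array left out in turn, for MI heart over intact heart the members that rose ranged from 0 to 5 and those that fell from 0 to 1, and the gap between subunits from -0.0456 to 0.052. For intact heart minus peritoneal the members that rose ranged from 0 to 1 and those that fell from 10 to 25, and the gap from -0.035 to 0.14. For MI heart minus peritoneal those that fell ranged from 2 to 7, and the F test called 9 to 25. A lone array of a group was then assumed to vary like the other groups. Without an MI heart array far fewer of all tests were called for MI heart over intact heart as well. Same-numbered arrays were not taken to pair the samples (correlations of their deviations 0.08, 0.18 and 0.17, no shared source in the labels). With the replicate number as a block (replicate block), 6 rose and 2 fell for MI heart over intact heart, 29 fell and 1 rose for intact heart minus peritoneal, 7 fell for MI heart minus peritoneal and the F test called 24. The dim probes, near the background on some arrays, and the 2 arrays a group limit what could be called.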
